A study of Mus musculus with 48 samples.

Results

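Metabotropic glutamate (mGlu) receptors are G protein-coupled receptors for glutamate, the main excitatory transmitter of the cortex. The 6 genes described here are Grm5 of group I, Grm2 and Grm3 of group II, and Grm4, Grm7 and Grm8 of group III. They were found in the table of counts as the rows whose Ensembl identifier carries one of these symbols in the mouse GENCODE annotation, which gave 6 of 48526 genes. Group I receptors couple to Gq, phospholipase C and calcium release, and sit mostly at the edge of the postsynaptic membrane. Receptors of groups II and III couple to Gi and Go, lower the activity of adenylyl cyclase, and act mostly on presynaptic terminals, where they restrain transmitter release. The mGlu3 receptor is also known from astrocytes, mGlu7 from the active zone, and mGlu5 for a form of synaptic depression that needs local protein synthesis.

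The RNA came from the cerebral cortex of 12 wild-type male C57BL/6 mice without treatment, with 4 mice aged 3 weeks (3w), 4 aged 5 months (5m) and 4 aged 18 months (18m). For the middle age the sample titles say 6 months, while the preparation protocol says 5, which is the value kept. From every cortex both the total homogenate (TH) and synaptosomes (SYN) were taken, the latter being pinched-off synaptic terminals with attached membranes collected on a sucrose gradient. For both compartments RNA was sequenced before a sucrose cushion (input) and from the pellet under it (SC), which holds RNA associated with ribosomes. The groups are therefore input_TH, SC_TH, input_SYN and SC_SYN at 3 ages, with n = 4 mice in each, and the 4 libraries of a mouse share that animal. Synaptosomes also hold glial fragments and no cell type was sorted, so that fewer cells of a type and less RNA per cell cannot be told apart.

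The 4 markers of excitatory cortical neurons summed to 1985 to 2510 CPM in input_TH. CPM here are counts scaled to the library total multiplied by its TMM factor. The TMM factors were 1.184 to 1.282 in input_TH and 0.780 to 0.875 in input_SYN. A rise from input_TH to input_SYN is therefore larger in these CPM than with library size alone. Reads counted on genes ranged from 1780267 to 18590040 per library. In SC_TH the median total was 4448523 at 3w, 8643431 at 5m and 12328632 at 18m, so that depth and age moved together there. Depth also differed with age in SYN. The SC_SYN totals were 5415274 to 6132944 at 3w and 8328535 to 14557582 at 5m, without overlap. At 18m they ranged from 5341263 to 18590040. In input_SYN the median total was 3212304 at 5m and 5790816 at 18m. The 8 astrocyte marker genes of the list used here were all higher in SYN than in TH, in input and in SC and at every age. Their summed level was 839 to 941 CPM in input_TH and 2493 to 2955 in input_SYN. Markers of other glia were higher in SYN as well, with 3 of 3 oligodendrocyte precursor markers and 5 or 6 of 6 microglia markers in each of the 6 comparisons, and 3 to 6 of 6 oligodendrocyte markers (1 lower in SC and 3 lower in input at 18m). With library size in place of TMM scaling the higher counts were 7 or 8 of 8 for astrocytes, 3 of 3 for precursors, 4 to 6 of 6 for microglia and 2 to 4 of 6 for oligodendrocytes, the last with 1 to 3 lower. The 4 endothelial and 3 erythrocyte markers were all lower in SYN. Neuronal markers moved both ways over the 6 comparisons. Of 6 neuron markers 1 to 4 were higher and 0 to 3 lower. Their medians were -0.20 to -0.01 in SC and 0.34 to 0.53 in input. Of 4 excitatory markers 1 or 2 were higher and 0 to 3 lower. Of 3 inhibitory markers 1 was higher and 1 or 2 lower. With library size 1 to 3, 1 and 1 of these lists were higher, and 3 to 5, 3 and 2 lower. Of 4 nuclear RNAs, 3 or 4 were lower in SYN, with a summed level of 15920 to 18620 CPM in input_TH and 1543 to 4180 in input_SYN. The libraries were pooled and sequenced in 2 runs, and since the labels do not place a library in a run, no value within a run could be computed.

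On the GRCm38 build, Grm5 spans 550.7 kb of chromosome 7 (87584168 to 88134907, plus strand). Grm2 is the most compact member, on chromosome 9 (106643095 to 106656082, minus strand). Grm3 lies on chromosome 5 (9485541 to 9725170, minus strand) and Grm4 on chromosome 17 (27422387 to 27521403, minus strand). Grm7 and Grm8 are the longest genes, with 921.6 kb (chromosome 6, 110645581 to 111567230, plus strand) and 860.1 kb (chromosome 6, 27275119 to 28135178, minus strand). All 6 are protein coding, and the counts are of reads on exons. Reads were counted without regard to strand, and 9.60% of the exonic bases of Grm2 are shared with Gm28111 on the opposite strand, against 2.21% of Grm7 (Gm20387), 0.97% of Grm8 (Mir592) and none of Grm3, Grm4 and Grm5. The GC content of the longest transcript was 61.7% for Grm4 and 56.9% for Grm2, and between 41.9% and 47.6% for the other 4.

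Per kilobase of exon, Grm3 and Grm5 were the most abundant of the 6 transcripts in every fraction, and Grm8 the least. CPM were scaled by TMM over all 48 libraries and divided by the length of all annotated exons. In input_TH, Grm3 reached 25.7 ± 2.39 CPM per kb (SD, n = 12 libraries), Grm5 22.8 ± 1.29 and Grm7 14.6 ± 0.699. Grm2 followed with 9.14 ± 1.26, Grm4 with 6.11 ± 0.738 and Grm8 with 2.15 ± 0.180. From Grm5 downwards each gene was above the next in all 12 libraries, while Grm3 was above Grm5 in 11 and their ranges overlapped (21.6 to 30.2 and 21.6 to 25.8). In SC_TH, Grm2 and Grm7 stood side by side, with 12.8 ± 1.48 and 12.7 ± 0.925 CPM per kb, which do not differ beyond their spread. In SYN the order was the same as in SC_TH apart from the first pair. Grm5 led in input_SYN (71.1 ± 6.85, against 65.4 ± 8.06 for Grm3, above it in 8 of 12 libraries), and Grm3 led in SC_SYN (88.2 ± 14.9, against 73.2 ± 8.44 for Grm5). In SC_SYN, Grm2 had 36.2 ± 9.64, Grm7 26.4 ± 3.72, Grm4 12.7 ± 2.11 and Grm8 5.03 ± 0.854 CPM per kb. The order of neighbours depends on the length used. Divided by the longest transcript alone, Grm5 stood above Grm3 in every fraction, with 29.1 against 25.7 in input_TH and 93.2 against 88.2 in SC_SYN, and Grm7 (17.8) above Grm2 (13.3) in SC_TH.

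Grm6, the mGlu receptor gene of retinal ON bipolar cells, had 0 or 1 counts in every library. It was at 0 in all 12 SC_TH libraries, where 3 counts correspond to at most 0.826 CPM, a limit that covers counting error only.

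**Figure D1:**
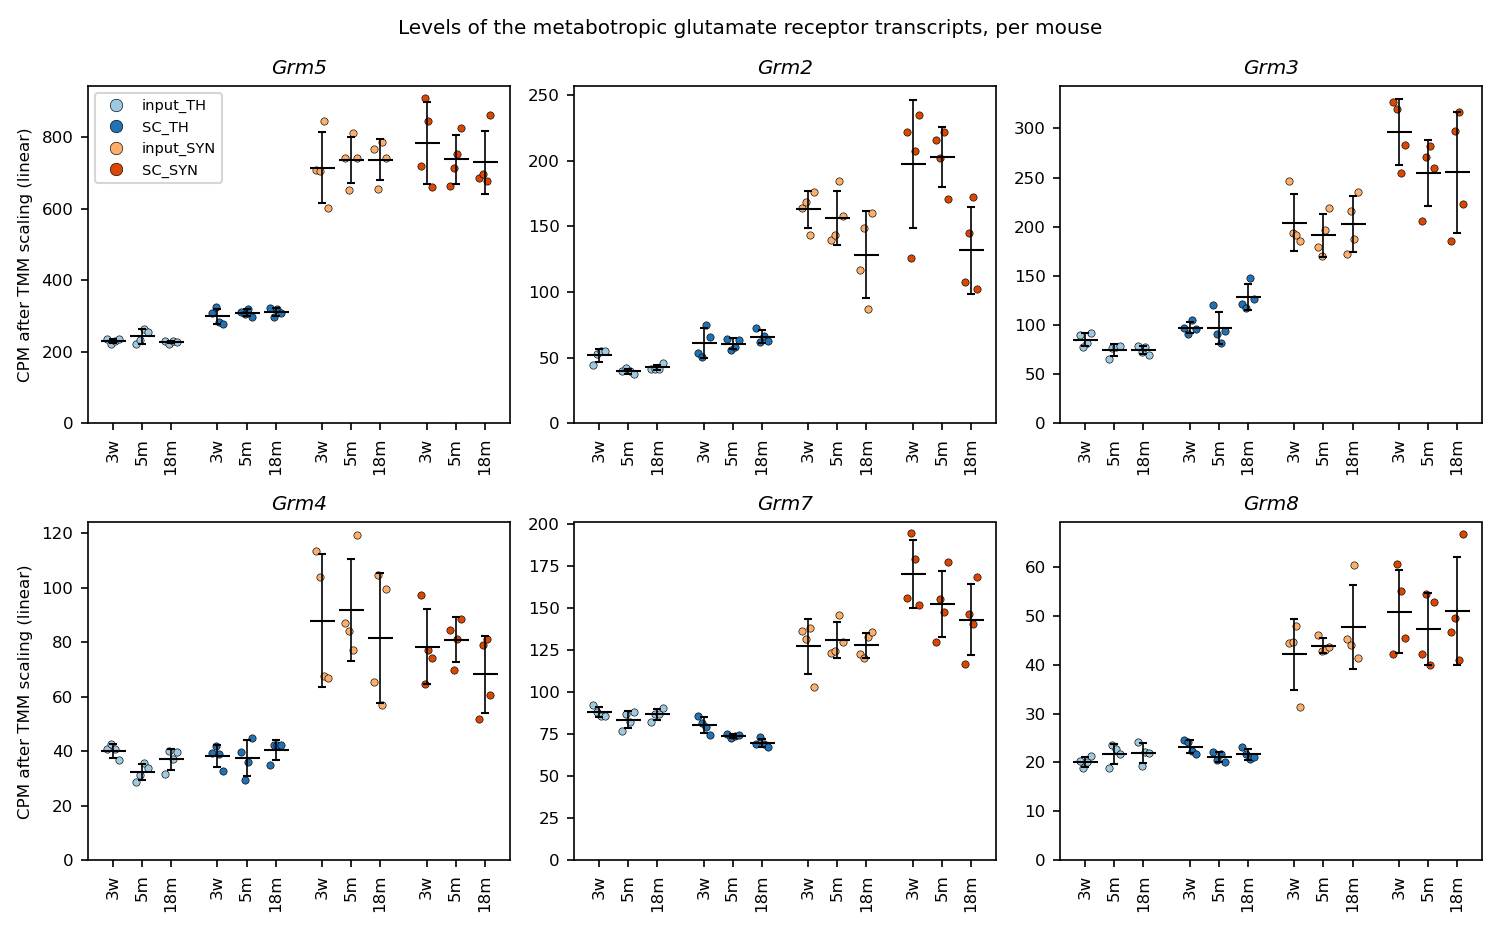
CPM after TMM scaling (linear axis) of each receptor transcript in the 4 fractions at 3 ages. Each dot is 1 mouse, and the bars give the mean and SD of 4 mice. The orange SYN libraries lie above the blue TH libraries for all 6 genes, and age moves the levels little beside that.

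The comparison of SYN with TH asks which transcripts are enriched in the synaptic compartment. All 6 receptor transcripts were higher in SYN at all 3 ages, in input RNA and in the ribosome pellet. In the pellet the differences were between 0.79 and 1.76 on the log2 scale, and in input RNA between 0.54 and 1.98. The tests are edgeR's quasi-likelihood test with Benjamini-Hochberg adjustment over all genes and a threshold of 0.05. In SC, 6 of 6 members were called higher at 3w (63.5% of 16630 genes called, 31.1% called higher), at 5m (67.8% and 32.1%) and at 18m (62.1% and 29.9%). In input the same count stands against 71.0% called and 31.7% called higher of 17860 genes at 3w, 72.7% and 32.6% at 5m, and 72.3% and 32.9% at 18m. The median over the members was 1.31, 1.23 and 1.05 in SC at the 3 ages, where the median over all genes was -0.04, -0.09 and -0.07. In input it was 1.23, 1.44 and 1.31, against -0.18, -0.18 and -0.12 over all genes.

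These values are relative to TMM scaling, which centres on the bulk of the genes. With library size alone the median of all genes moved down by 0.53 to 0.65, and 20.6% to 25.4% of the called genes were higher in SYN in place of 44.6% to 49.0%. Grm2, Grm3, Grm5 and Grm8 were still called higher in all 6 comparisons under that scaling. Grm4 was called in 5 of them, without SC at 18m (0.26, adjusted p = 0.102 with edgeR). Grm7 was called in SC at all 3 ages, but in input its values were -0.03 at 3w, 0.0027 at 5m and -0.0041 at 18m, and none was called.

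Grm5, which encodes the Gq-coupled receptor mGlu5, had the highest CPM of the 6. In input_TH it had 236, 222, 229.9 and 235 CPM in the mice of 3w, and in input_SYN 707, 705, 844 and 601. In SC_TH at that age it had 308, 325, 283 and 278 CPM, and in SC_SYN 719, 908, 845 and 660.1. No SYN library overlapped with a TH library, at this or the later ages. The log2 difference in input was 1.64 ± 0.089 (SE) at 3w, 1.61 ± 0.088 at 5m and 1.70 ± 0.088 at 18m, and in SC 1.44 ± 0.097, 1.28 ± 0.096 and 1.26 ± 0.096 (adjusted p at most 6.46e-11 in SC, edgeR). The ratio of a single mouse ranged from 1.35 to 1.88 in input and from 1.08 to 1.58 in SC.

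Grm2, a presynaptic autoreceptor gene of group II, had the largest difference of the 6 in 8 of 12 mice in input and in 6 of 12 in SC. At 5m it stood at 40.0, 41.9, 40.1 and 37.3 CPM in input_TH and at 139.6, 143, 185 and 158 in input_SYN. The SC_TH libraries of 5m had 64.5, 55.8, 58.4 and 63.6 CPM, and those of SC_SYN 216, 202, 222 and 171. The groups lie far apart at 5m. At 18m SC_SYN had 108, 145, 172 and 102 CPM, below 3 of the 4 mice of 5m in every case, and SC_TH 72.7, 62.3, 66.5 and 63.0. The lower SC_SYN values, 108 and 102, came from mice 195 and 198, whose libraries were the shallower ones of that group. The log2 difference in SC was 1.75 ± 0.173 at 3w, 1.76 ± 0.169 at 5m and 1.03 ± 0.166 at 18m (adjusted p = 9.99e-06 at 18m, edgeR), and in input 1.66, 1.98 and 1.62.

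Grm3, the group II receptor shared by neurons and astrocytes, differed by 1.66 ± 0.144 at 3w, 1.41 ± 0.141 at 5m and 1.02 ± 0.139 at 18m in SC. In input the differences were 1.27, 1.37 and 1.45. At 18m SC_TH had 122, 117, 148 and 127 CPM, and SC_SYN 186, 297, 316 and 223, the widest spread of the 3 ages (256 ± 61.4, SD). The lower SC_SYN values, 186 and 223, came from mice 195 and 198, whose libraries were the shallower ones of that group. The astrocyte markers moved in the same direction as Grm3, by a median of 1.28 to 1.41 in SC and 1.39 to 1.63 in input. So did those of oligodendrocyte precursors (1.16 to 1.49 in SC and 1.12 to 1.43 in input) and of microglia (1.08 to 1.57 and 1.18 to 1.72). The neuron markers had medians of -0.20 to -0.01 in SC and 0.34 to 0.53 in input. The part of these cell types in the Grm3 values was not tested.

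Grm4 had the smallest difference of the 6 in SC at 18m (0.79 ± 0.145, adjusted p = 5.11e-05, edgeR), after 1.08 at 3w and 1.13 at 5m. Its input values were 1.18, 1.52 and 1.17. The spread between libraries was wide in input_SYN, with 114, 104, 67.6 and 66.7 CPM at 3w and 65.3, 105, 56.8 and 99.5 CPM at 18m. At both ages the lower values came from the shallower libraries. The same mice had another order in SC_SYN at 18m, with 51.8, 79.0, 81.2 and 60.7 CPM. The part of depth in this spread was not tested. All these input_SYN values still lay above the highest input_TH library (42.6 CPM).

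Grm7, whose product sits in the active zone, had the smallest difference of the 6 in input. At 3w it had 92.4, 88.4, 85.9 and 86.0 CPM in input_TH and 136, 132, 138 and 103 in input_SYN. The groups did not overlap, but the mouse with 103 CPM came near the homogenate. The log2 difference was 0.54 ± 0.083 at 3w, 0.65 ± 0.083 at 5m and 0.57 ± 0.080 at 18m (adjusted p at most 1.58e-06, edgeR). In SC it was 1.13 ± 0.100, 1.07 ± 0.098 and 1.07 ± 0.097. Grm8 differed by 1.09, 1.03 and 1.10 in input and by 1.17, 1.19 and 1.26 in SC. It was the shallowest member, with 49 to 261 counts per library in input_SYN.

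**Figure D2:**
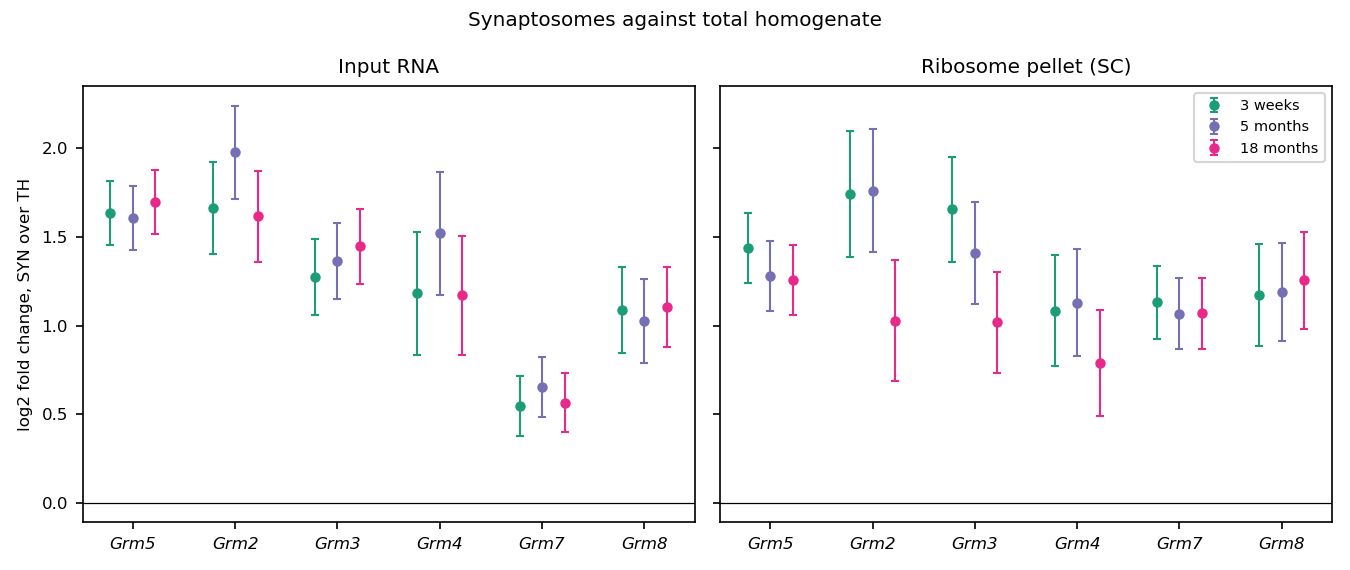
Log2 fold change of SYN over TH (vertical axis) for the 6 genes in input RNA and in the ribosome pellet, with 95% confidence intervals from edgeR, coloured by age. All intervals lie above 0, Grm7 is the lowest gene in input, and the 18m values of Grm2 and Grm3 in the pellet are the lowest of their 3 ages.

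The members were then compared with each other within each mouse, a comparison chosen after the data were seen. A difference between 2 genes of the same libraries does not depend on the scaling. The 15 pairs were tested in each of 4 ratios by exact permutation over 12 mice (two-sided, flipping the signs of the differences), adjusted over 60 tests. The smallest p this test allows is 0.000488. For input_SYN over input_TH, 12 of 15 pairs differed, and Grm7 had the lowest ratio of the 6 in 12 of 12 mice. It was lower than Grm5 by a mean of 1.06 ± 0.110 (SD over mice, 12 of 12 mice, adjusted p = 0.00172, exact test), and lower than Grm8 by 0.49 ± 0.213 (12 of 12 mice, adjusted p = 0.00172, exact test). Grm2 and Grm5, the top pair, were not told apart (mean difference 0.09 ± 0.394, adjusted p = 0.494, exact test). For SC_SYN over SC_TH, 6 of 15 pairs differed. Grm4 was below Grm2 in 11 of 12 mice (by 0.49 ± 0.238, adjusted p = 0.00308, exact test) and below Grm3 in 11 of 12 (by 0.36 ± 0.357, adjusted p = 0.00789, exact test). Grm7 was below Grm5 in 12 of 12 mice there too, by 0.24 ± 0.100.

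Pellet over input compares the share of a transcript in the ribosome pellet with its share in the input. Within a single compartment the study uses this ratio as translational efficiency (TE), which is the meaning of TE here. For synaptosomes the study also takes SC_SYN over SC_TH as TE. In TH, Grm2, Grm5 and Grm3 were higher in the pellet than in input, Grm7 was lower, and Grm4 and Grm8 did not pass the test. As a mean over the 3 ages the log2 value of SC_TH over input_TH was 0.51 ± 0.055 (SE) for Grm2, 0.40 ± 0.035 for Grm5 and 0.46 ± 0.055 for Grm3 (adjusted p = 3.14e-09, 4.44e-11 and 1.87e-08 with edgeR). It was -0.20 ± 0.034 for Grm7 (adjusted p = 8.60e-06), 0.11 ± 0.061 for Grm4 (adjusted p = 0.118) and 0.06 ± 0.049 for Grm8 (adjusted p = 0.245). Thus 4 of 6 members were called, where 75.8% of 18416 genes were called, 35.6% higher and 40.2% lower. The median was 0.25 over the members and -0.04 over all genes. Library size in place of TMM moved the median of all genes by -0.06 and changed no call of a member.

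In single mice, Grm7 had a negative ratio in TH in 12 of 12, from -0.43 to -0.03, and was the lowest of the 6 in each of them. Grm5 was positive in 12 of 12 mice, from 0.22 to 0.55, and Grm3 in 12 of 12, from 0.07 to 0.93. The levels show the same. At 18m Grm7 had 82.3, 87.3, 86.9 and 90.6 CPM in input_TH and 69.4, 73.1, 69.0 and 67.3 in SC_TH, without overlap. At 3w input_TH had 92.4, 88.4, 85.9 and 86.0 CPM and SC_TH 86.1, 81.8, 79.4 and 74.6, where 1 SC_TH library lay just above the lowest pair of input_TH. The summed level of the 4 nuclear RNAs, among them Malat1, was 15920 to 18620 CPM in input_TH and 5069 to 13130 in SC_TH, and all 4 were lower in the pellet. Grm7 is also the member with the longest genomic span (921.6 kb). Other long members did not have a negative mean ratio, with 0.05 for Grm8 (860.1 kb) and 0.39 for Grm5 (550.7 kb). The part of nuclear RNA in the Grm7 values was not tested.

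In SYN, Grm3 and Grm7 were higher in the pellet, and the other 4 did not pass the test. SC_SYN over input_SYN was 0.41 ± 0.079 for Grm3 (adjusted p = 0.00017, edgeR) and 0.25 ± 0.065 for Grm7 (adjusted p = 0.00304). The values were 0.22 ± 0.106 for Grm2 (adjusted p = 0.102), 0.14 ± 0.094 for Grm8 (0.239 after adjustment), 0.02 ± 0.066 for Grm5 (0.816) and -0.22 ± 0.108 for Grm4 (0.0997). This is 2 of 6 called, beside 43.2% of 14301 genes called and 21.8% called higher. Grm7 was positive in 11 of 12 mice and Grm3 in 11 of 12. At 5m, Grm3 had 179.8, 169.8, 196 and 219 CPM in input_SYN and 206, 270.4, 282 and 259.7 in SC_SYN, which overlap only through 1 mouse on each side. Without mouse 197, 4 of 6 were called, Grm4 (-0.29, adjusted p = 0.0339, edgeR) and Grm8 (0.22, adjusted p = 0.0395) among them. With the mouse as a block together with offsets for GC content and length 5 were called, all but Grm2.

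The difference between the compartments was tested directly in a fit of all 48 libraries, a contrast added after the data were seen. Grm7 gained 0.47 ± 0.076 on the log2 scale in SYN relative to TH (SC over input, adjusted p = 1.41e-06, edgeR), and Grm5 lost ground, by -0.35 ± 0.076 (adjusted p = 0.000173). Both were called in the 15 of 15 alternatives run for this contrast: library size, DESeq2, the mouse as a block, and each of 12 mice left out. GC and length offsets, thinned libraries and no low-count filter were not run for it. Grm4 (-0.31 ± 0.134, adjusted p = 0.0573) and Grm2 (-0.27 ± 0.125, adjusted p = 0.0787) did not pass. With the mouse as a block Grm4 passed (-0.29, adjusted p = 0.0294), and without mouse 197 both passed (-0.38 and -0.36, adjusted p = 0.0238 and 0.0126, edgeR). Grm3 and Grm8 had -0.03 ± 0.104 and 0.10 ± 0.104, with 95% intervals from -0.24 to 0.18 and from -0.10 to 0.31. Here 2 of 6 members were called, 1 in each direction, against 43.5% of 18112 genes called, 18.7% higher and 24.8% lower. The split of all calls moved to 52.4% higher with library size in place of 43.0%.

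Within mice and free of scaling, Grm7 stood 0.60 ± 0.158 below Grm5 in the TH ratio (0 of 12 mice with Grm7 higher, adjusted p = 0.00172, exact test) and 0.22 ± 0.105 above it in the SYN ratio (12 of 12 mice, adjusted p = 0.00172, exact test). The 2 genes thus exchanged their order between the compartments. These ratios and those of SYN over TH are built from the same 4 libraries of each mouse, so that they are not independent results. In TH 11 of 15 pairs differed in SC over input, and in SYN 5 of 15. Grm3 and Grm4 differed in both, by 0.36 ± 0.269 in TH and 0.60 ± 0.348 in SYN.

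**Figure D3:**
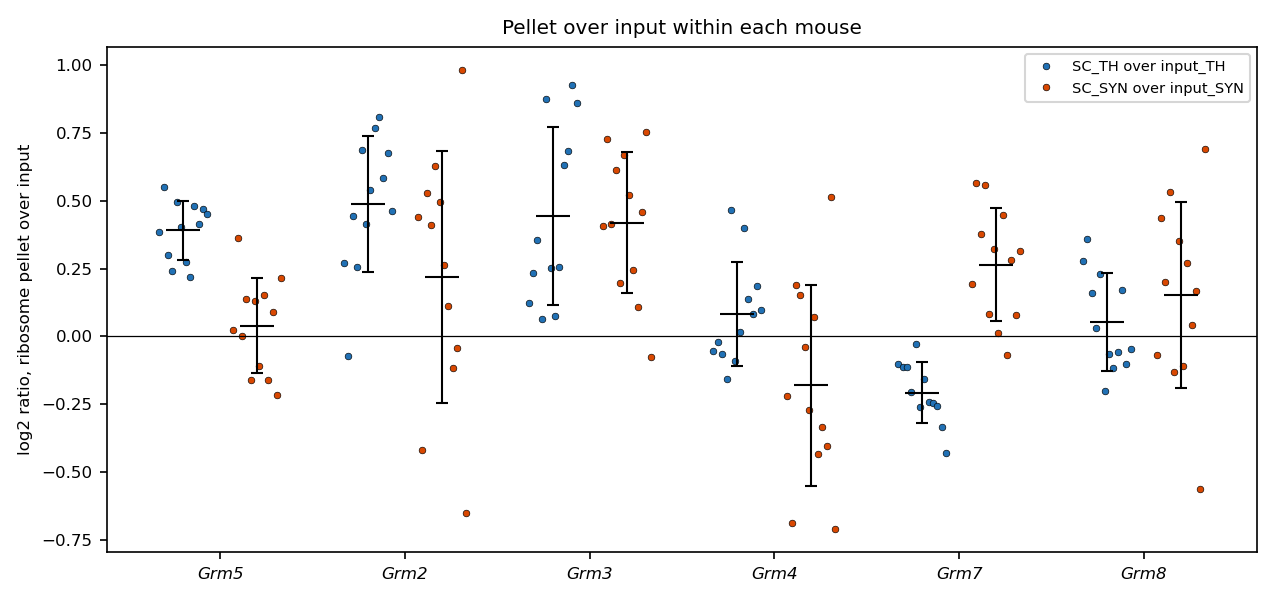
Log2 ratio of the ribosome pellet over input within each mouse (vertical axis) for the 6 genes, TH in blue and SYN in orange. Dots are the 12 mice, bars the mean and SD. Grm7 lies below 0 in all TH values and above 0 in 11 of 12 SYN values, while Grm5 is above 0 in all TH values and scattered around 0 in SYN.

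Few members were called as changed with age, and a change that was not called is not shown to be absent. Of the 8 comparisons of consecutive ages within a fraction, only that of input_TH between 3w and 5m called any member, and there Grm2 and Grm4 fell. Grm2 had 44.2, 53.0, 55.0 and 55.1 CPM in input_TH at 3w and 40.0, 41.9, 40.1 and 37.3 at 5m. Grm4 had 40.7, 42.6, 40.8 and 36.6 CPM at 3w and 28.8, 31.2, 35.5 and 33.8 at 5m. In both genes all 5m values lay below all 3w values. The log2 change was -0.38 ± 0.069 for Grm2 (SE, adjusted p = 0.00142, edgeR) and -0.32 ± 0.081 for Grm4 (adjusted p = 0.0163), and that of Grm3 was -0.20 ± 0.067 (adjusted p = 0.0685, past the threshold in 3 of 14 alternatives). Thus 2 of 6 were called, where 11.8% of 18078 genes were called and 7.05% called lower. The median was -0.14 over the members and 0.01 over all genes, and 40.3% of all called genes were higher (59.2% with library size).

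The call of Grm2 held in 13 of 14 alternatives and that of Grm4 in 12 of 14. Neither held in the fit of all 48 libraries, where the adjusted p was 0.189 for Grm2 and 0.386 for Grm4. The call of Grm4 was also lost without mouse 188 (-0.29, adjusted p = 0.0543, edgeR). Over the same step all 6 oligodendrocyte markers fell in each of the 4 fractions, in input_TH from summed levels of 5066 to 6314 CPM at 3w to 2012 to 2292 at 5m. In input_TH the 3 oligodendrocyte precursor and 3 erythrocyte markers fell too, while of 6 neuron markers 1 rose and 1 fell. Their part in the change of Grm2 and Grm4 was not tested.

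At the same step no member was called in the other fractions. The value of Grm2 was -0.01 ± 0.111 in SC_TH, -0.10 ± 0.149 in input_SYN and -0.01 ± 0.197 in SC_SYN, and that of Grm4 -0.02 ± 0.122, 0.01 ± 0.198 and 0.00 ± 0.157. The intervals were wide. For Grm2 in SC_SYN the interval reached from -0.43 to 0.41, and it holds the size of the change in input_TH. None of the 6 was called at this step in SC_TH (18.0% of 16427 genes called), SC_SYN (8.05% of 14240) or input_SYN (3.22% of 12975), and none had an unadjusted p under 0.05 or was called by DESeq2 there. Whether the change of Grm2 differed between fractions was tested directly. SYN minus TH gave 0.32 ± 0.177 in input (adjusted p = 0.669, edgeR) and SC minus input in TH 0.35 ± 0.136 (adjusted p = 0.137), so that neither difference passed.

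Between 5m and 18m no member was called in SC_SYN (0.0140% of genes called), SC_TH (2.17%), input_SYN (0.139%) or input_TH (15.5%). At an unadjusted p under 0.05 there was 1 member in each of SC_SYN, SC_TH and input_TH, and 0 in input_SYN. DESeq2 called 1 in SC_TH and 0 elsewhere. The gene in SC_TH was Grm3. It had 121, 90.9, 82.0 and 94.3 CPM at 5m and 122, 117, 148 and 127 at 18m, so that 1 mouse of 5m lay among those of 18m. The value was 0.42 ± 0.107 (95% interval 0.19 to 0.64, adjusted p = 0.0504, edgeR). Over 14 alternatives the adjusted p ranged from 0.00154 to 0.188, and 4 of them passed, among them the fit without mouse 191 (0.55, adjusted p = 0.00527). With the libraries thinned to equal depth it was 0.33 (adjusted p = 0.143). In input_TH its value over the same step was 0.01 ± 0.067, and the ratio of SC_TH to input_TH differed by 0.41 ± 0.134 (adjusted p = 0.102). Over the same step 3 of 4 nuclear RNAs fell in SC_TH, from summed levels of 7121 to 10610 CPM to 5069 to 6076, and no astrocyte marker was called. Their part in the Grm3 value was not tested.

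The gene in SC_SYN was Grm2, with 216, 202, 222 and 171 CPM at 5m and 108, 145, 172 and 102 at 18m. The groups overlapped by 1 mouse on each side. Mice 195 and 198, with 108 and 102 CPM, had the shallower libraries. Their counts of Grm5 were 3781 and 3942, against 10496 and 8470 in mice 196 and 197. Grm3 and Grm4 were also lower in mice 195 and 198, while Grm5, Grm7 and Grm8 did not divide that way. The part of these libraries in the Grm2 value was not tested. The value was -0.59 ± 0.197 (95% interval -1.01 to -0.17, unadjusted p = 0.00899, adjusted p = 0.199, edgeR). Of 14 alternatives 1 passed, the fit of all 48 libraries (-0.61, adjusted p = 0.00808). In SC_TH the value of Grm2 was 0.14 ± 0.106 over the same step, and the difference between SYN and TH was -0.73 ± 0.234 (adjusted p = 0.155). Grm4 was the gene in input_TH (0.19 ± 0.081, adjusted p = 0.112, edgeR), and it passed without mouse 195 (0.26, adjusted p = 0.0234).

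**Figure D4:**
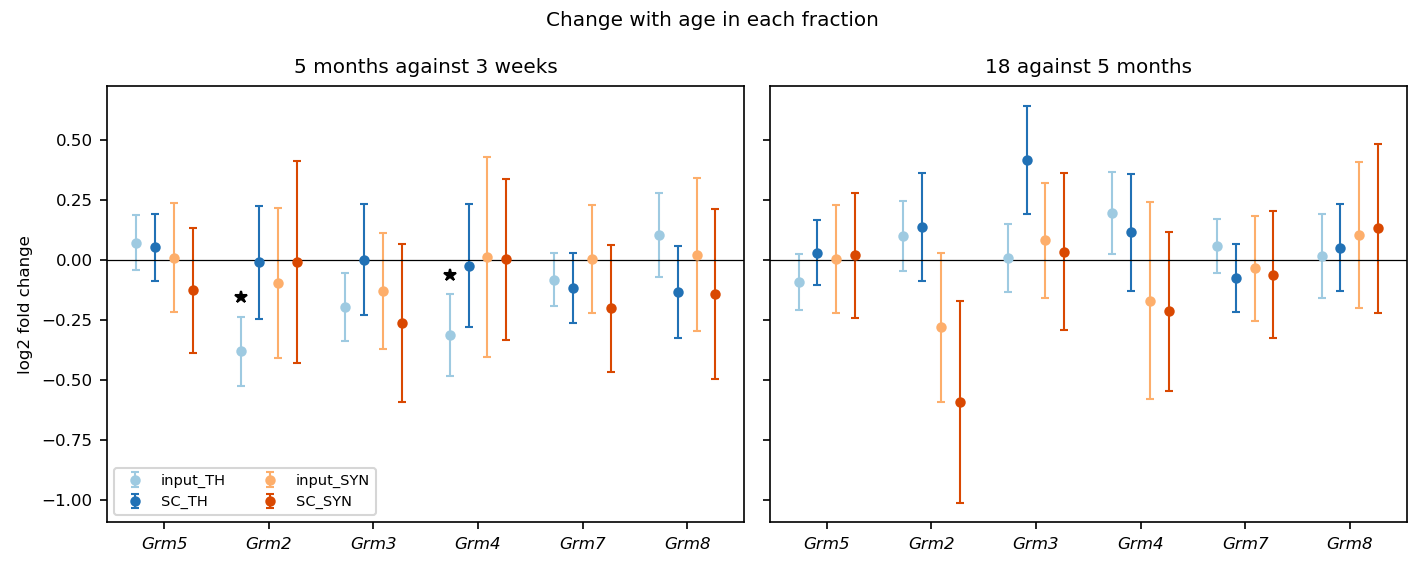
Log2 fold change between consecutive ages (vertical axis) for the 6 genes in the 4 fractions, with 95% confidence intervals from edgeR. Stars mark adjusted p under 0.05 and stand only at Grm2 and Grm4 in input_TH from 3w to 5m. The widest shift without a star is Grm2 in SC_SYN from 5m to 18m, at -0.59.

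Interaction terms asked whether TE or synaptic enrichment changed with age, and no member was called in any of the 8. The backgrounds were 2.35% and 1.78% of genes called for TE in TH (5m against 3w and 18m against 5m), 0% and 0% for TE in SYN, 0.0301% and 0% for SYN minus TH in SC, and 0.0224% and 2.42% in input. At an unadjusted p under 0.05 there were 2 members (Grm2 and Grm8) and 1 member (Grm3) for TE in TH, 0 and 0 for TE in SYN, 0 and 1 (Grm2) in SC, and 0 and 1 (Grm2) in input. DESeq2 called 0 members in all 8. For all genes, TE in SYN gave 0 calls with edgeR and 0 with DESeq2 at both steps, with 474 and 393 genes at an unadjusted p under 0.05. The tests can miss changes of this size. In simulated counts for TE in SYN from 5m to 18m, 2% of log2 changes of 0.5 were recovered and 27.6% of changes of 1. For SC_SYN at that step the shares were 10% and 65.3%.

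Of the rest of the mGlu pathway, 61 genes in 10 lists were read alongside, and 60 of them were tested in each comparison (all but Grm6). The 6 adenylyl cyclases and the 4 genes of endocannabinoid signalling were higher in SYN in all 6 comparisons of SYN with TH, as were at least 5 of 6 genes for supply and removal of glutamate. With library size these counts were at least 5 of 6, 2 of 4 and 4 of 6, with none lower. Over all genes, 62.1% to 72.7% were called in the 6 comparisons with TMM, and 29.9% to 32.9% were called higher. The 6 cyclases had a median of 1.06 to 1.29 in SC and 1.34 to 1.64 in input. In SC at 5m the largest of each of these lists were Adcy5 (1.49 ± 0.192), Daglb (1.43 ± 0.137), which makes the endocannabinoid 2-AG, and Slc17a7 (1.51 ± 0.095), the vesicular transporter VGLUT1. The G protein, phospholipase, receptor partner and desensitization lists moved both ways. Of 9 Gi and Go subunit genes 1 was higher and 4 lower in SC at 5m, and of the 10 genes from Gq to protein kinase C 3 were higher and 6 lower. Over all 60 genes, 31 were higher and 20 lower in SC at 5m, with a median of 0.37 (all genes -0.09). Of all genes tested in that comparison, 67.8% were called and 32.1% were called higher. The median of the 60 was above 0 in all 6 comparisons of SYN with TH and below 0 in all 6 with library size, where 24 were higher and 29 lower in SC at 5m.

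The proteins that bind these receptors differed among themselves. Homer1, Homer2 and Homer3 are scaffolds of the group I receptors. Homer2 was higher in SYN in SC at all ages (0.71 ± 0.130, 1.07 ± 0.128 and 1.51 ± 0.129), and Homer1 was lower (-0.95 ± 0.128, -0.82 ± 0.126 and -0.56 ± 0.126). Homer3 was higher in SC at 3w and 5m (0.61 and 0.48) and had 0.12 at 18m (adjusted p = 0.573, edgeR), and with library size none of these 3 values passed (0.07, -0.10 and -0.40). With that scaling Homer2 was not called in SC at 3w (0.16, adjusted p = 0.268), and Homer1 kept its direction. Elfn1 and Elfn2, which bind group III receptors across the synapse, were higher in SYN in all 6 comparisons, Elfn1 by 0.87 to 1.93 (with library size not called in SC at 18m) and Elfn2 by 1.19 to 1.85. Pick1, a PDZ protein that binds mGlu7, was lower in all 6, by -1.10 to -0.63. Of the whole list of 8 receptor partners, 2 were higher (Elfn1 and Elfn2) and 5 lower in SC at 5m, with a median of -0.46 (2 and 6 with library size). In SC over input between the compartments, Pick1 went the same way as Grm7 (0.32 ± 0.093, adjusted p = 0.00396, edgeR) and Elfn1 the opposite way (-0.68 ± 0.138, adjusted p = 7.98e-05). Of the 60 genes 7 were called higher and 31 lower there, with a median of -0.24 (all genes 0.01), and 11 higher and 24 lower with library size. Over all genes 18.7% were called higher and 24.8% lower with TMM.

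The pathway counts with age are read against the share of all genes called. From 3w to 5m, 2 of 60 were higher and 3 lower in SC_SYN (8.33% called, against 8.05% of all genes), and 10 and 2 in SC_TH (20.0% against 18.0%). The inputs had 1 higher and 2 lower in SYN (5.00% against 3.22%), and 3 and 9 in TH (20.0% against 11.8%, and 5 and 7 with library size). From 5m to 18m, 6 were higher and 3 lower in input_TH (15.5% of all genes called; 4 and 8 with library size). Elfn2 was higher at 5m in all 4 fractions, in the pellets by 0.79 ± 0.146 (SYN) and 0.57 ± 0.083 (TH) and in the inputs by 0.52 ± 0.134 (SYN) and 0.30 ± 0.073 (TH). Rgs4, which speeds the return of Gi and Gq to rest, was lower in all 4, by -1.04 ± 0.189 in SC_SYN and -0.65 ± 0.056 in input_TH. From 5m to 18m, Arc, an immediate early gene that takes part in mGlu-dependent depression, was lower in input_SYN (-1.80 ± 0.290), SC_TH (-1.60 ± 0.295) and input_TH (-1.14 ± 0.255). In SC_SYN its mean was 710.1 CPM at 5m and 220.7 at 18m, without overlap between the groups, and the value was -1.67 ± 0.371 (adjusted p = 0.155, edgeR). No pathway gene was called in SC_SYN at that step.

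The genes whose level followed each receptor most closely over the 48 libraries were taken among 10809 genes with a mean of at least 5 CPM. For Grm5 these were Tenm1 (Pearson r = 0.99), Gria1 (0.99) and Scn8a (0.99). For Grm2 they were Dag1 (0.99), Lgi3 (0.98) and Atp6v0e2 (0.98), and for Grm3 Scg3 (0.98), Atp6ap1 (0.98) and Nrcam (0.98). For Grm4 they were Kcnj4 (0.97), Slc39a3 (0.96) and Reep2 (0.96). Grm7 had the lowest likeness to any gene, with Lrp1b (0.95), Cacna2d3 (0.95) and Exd2 (0.95). Lrp1b was also the third gene of Grm8 (0.96), after Fat3 (0.98) and Tenm1 (0.97). Among the members r ranged from 0.82 (Grm4 and Grm8) to 0.96 (Grm5 and Grm8), and Grm7 and Grm8 had 0.94. The points are 4 libraries from each of 12 mice and share the large difference between SYN and TH, and the values are a description.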

How the data were processed

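RNA from 4 fractions of cortex of 12 mice was sequenced as 48 rRNA-depleted, strand-marking libraries with molecular identifiers, whose use in counting is not given in the sources used here. The authors aligned reads to GRCm38 with TopHat2 (version 2.1) after bcl2fastq (version 2.20.0.422), and deposited raw counts per gene from featureCounts without strand. Of 48526 identifiers, 48144 matched the mouse GENCODE annotation, and the other 382 held 0.0596% of counts.

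All genes kept by filterByExpr were fitted in R 4.3.3 by the quasi-likelihood method of edgeR 4.0.16 after TMM scaling, and called at a Benjamini-Hochberg adjusted p under 0.05. A fraction was fitted over its 3 ages, and pairs of fractions together for SYN against TH and for SC against input. CPM in the text use TMM over 48 libraries. The scripts were tested on simulated data. Alternatives were DESeq2 1.42.0, library size, no low-count filter, thinned libraries, GC and length offsets, 1 fit of 48 libraries, the mouse as a block, and each mouse left out. Total counts of 1780267 to 18590040 per library limit precision. The chi-square per gene of replicate pairs was 1.98 to 32.2, where 1 stands for counting error only.

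The libraries of a mouse come from 1 animal, which pairs them across fractions. The deviations from group means of 2 fractions of a mouse correlated with a median r of -0.0098 to 0.1105 over 6 pairs of fractions (range -0.3727 to 0.3553). The main design has no block, a choice made here since no design formula is given in the sources used here, and blocked values stand beside a result where they change it.

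The members and lists were chosen with earlier results of these data known. All members are named with their values, as are 6 genes whose products bind a member (Homer1, Homer2, Homer3, Elfn1, Elfn2 and Pick1), and of the other pathway genes at most 4 in a comparison, each the largest called change of its list without overlap between groups. For each member the 3 genes closest in log2 CPM (prior count 2) are named. The tests between pairs of members and of SC over input between compartments were added after the data were seen. The figures were drawn with matplotlib.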

Additional observations from a re-analysis of the deposited data

Results flagged for a closer look

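In 4 of 72 groups of 4 mice, 1 mouse stood apart from the others by Dixon's ratio of the gap to the whole range, where chance gives about 3.6 in 72. Grm5 in SC_SYN at 18m had 861 CPM in mouse 198, against 676 to 696 in the other 3 (ratio 0.894). The same mouse had 45.7 CPM of Grm2 in input_TH at 18m, against 41.5 to 41.6 (ratio 0.978), a gap of few CPM in a narrow group. Grm3 in input_SYN at 3w had 247 CPM in mouse 187, against 186 to 193 (ratio 0.873), and Grm4 in SC_TH at 18m had 34.7 CPM in mouse 195, against 42.1 to 42.3 (ratio 0.975).

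The ratio of SC to input differed between the compartments for 2 receptors, by the direct test of the difference in edgeR. For Grm7 it was higher in SYN than in TH by 0.47 on the log2 scale, and for Grm5 the same difference was -0.35. All 6 receptors had been examined, and the other 4 did not pass.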

How the results depend on the processing

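Of 351 recomputed counts of called members, 335 stayed within 1.5 times the reported count. Of 2106 recomputed fold changes, 2067 kept their side of the threshold, 5 lost it, 31 gained it and 3 reversed. The causes were not tested. Reversed were Grm4 in SC_SYN from 3w to 5m with GC and length offsets (-0.39, adjusted p = 0.0436 with edgeR, against 0.00), and Grm7 in input SYN over TH with library size (-0.027 at 3w, -0.0041 at 18m). The count rose from 0 to 1 in SC_SYN from 3w to 5m and in SC_TH from 3w to 5m with those offsets, in SC_SYN from 5m to 18m with 1 fit of 48 libraries, and in SC_TH from 5m to 18m with DESeq2, with no filter and with the offsets. It also rose from 0 to 1 without a filter for TE in TH at both steps (Grm2, then Grm3), and fell from 2 to 0 in input_TH from 3w to 5m with 1 fit of 48 libraries. With 1 mouse left out the count ranged from 0 to 1 for SC_TH (without 191) and input_TH (without 195) from 5m to 18m and for TE in TH (without 189 for the first step, 191 for the second). It ranged from 4 to 5 for SC_TH over input_TH and from 2 to 4 for SC_SYN over input_SYN and its difference from TH (without 197), and was the same in the other comparisons. Pairs of members that differed ranged from 5 to 8 in SC_SYN over input_SYN, 4 to 8 in SC_SYN over SC_TH, 11 to 12 in SC_TH over input_TH, and stayed at 12 in input.

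With the mouse as a replicate block, 6 members were still called in each comparison of SYN with TH and 4 in SC_TH over input_TH, and of the calls of members only Grm4 changed, in the difference of SC over input between compartments (-0.29). Combined with GC and length offsets the block gave 5 called in SC_SYN over input_SYN in place of 2. Levels per kb in input_TH with the longest transcript were 29.1 for Grm5, 7.93 for Grm4, 20.5 for Grm7 and 4.43 for Grm8. With library size they were 28.2 for Grm5, 11.3 for Grm2, 31.7 for Grm3, 7.53 for Grm4, 18.1 for Grm7 and 2.65 for Grm8. Depth limits Grm8 most, with as few as 49 counts in a library.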
